A study of Homo sapiens and Mus musculus with 12 samples.

Results

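Tcf7, Lef1, Bach2 and Il7r mark the stem-like and immature states of lymphocytes. Their mouse genes, and the human genes TCF7, LEF1, BACH2 and IL7R, were taken by symbol from the count tables of the series, which gave 8 rows of 40325, 4 of the 22021 genes of the mouse table and 4 of the 18304 genes of the human table. Each symbol occurred once. The mouse libraries came from NK cells of the spleen, 3 from KO mice and 3 from WT mice, all on the C57BL/6J background. Both groups carried Ehmt2 alleles flanked by loxP sites (Ehmt2 flox/flox), and the KO mice in addition expressed iCre from Ncr1, so that deletion was limited to cells that had switched on this gene of the NK cell receptor NKp46. The sample titles name the KO libraries EHMT2-KO, which was followed here, whereas their genotype field reads Ezh2-KO. Mice were matched for age and sex, and the labels do not say whether a library was made from 1 mouse or from a pool. The human libraries came from NK92MI, an established line of human NK cells that makes its own IL-2, 3 treated with BIX-01294 (BIX), an inhibitor of the methyltransferase activity of EHMT2, and 3 treated with its solvent DMSO. The labels give no dose or duration, and the study states a dose and a number of days for its other experiments on NK92MI cells without naming these libraries. The labels also do not state that the 3 libraries of a treatment came from separate cultures, so their p-values measure the spread between these libraries, which may be technical. The 3 DMSO columns, headed CON in the table, carry no link to the numbered samples and are called libraries A, B and C.

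TCF-1, encoded by Tcf7, and LEF-1, encoded by Lef1, are related DNA-binding proteins that bind β-catenin or Groucho/TLE co-repressors, and they are needed for early NK cell development. BACH2 is a repressor that pairs with small Maf proteins and holds lymphocytes in a naive or memory-like state, with Hmox1 among the known targets of the BACH family. IL7R, the α chain of the IL-7 receptor, signals with the common γ chain through JAK1, JAK3 and STAT5, and in the NK lineage it marks precursors and less mature cells. EHMT2 (G9a) deposits H3K9me2, a repressive histone mark, and the comparisons ask whether loss or inhibition of EHMT2 changed the transcripts of these genes.

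Depth ranged from 25891680 (WT replicate 2) to 37438868 counts per mouse library and from 16579469 to 17165446 counts per human library. Levels are given as TMM-normalized CPM (counts scaled to a common library size), and a gene was called when edgeR's quasi-likelihood test gave a Benjamini-Hochberg adjusted p under 0.05 with a |log2 fold change| over 0.5. Ehmt2, the targeted gene, lay at 275, 284 and 286 CPM in WT replicates 1, 2 and 3 and at 171, 143 and 137 CPM in KO replicates 1, 2 and 3, and it fell by 0.91 on the log2 scale (adjusted p = 0.0162, edgeR). EHMT2 also fell under BIX, by 0.58 (adjusted p = 1.01e-04, edgeR).

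Tcf7 and Lef1 are close relatives, so their reads could in principle be confused. The most alike stretch of 150 coding bases is shown for each (GENCODE M21 on GRCm38, 5′ to 3′), with the bases that differ in capitals. It lies in 2 coding exons of each gene, in the part that encodes the DNA-binding HMG box, at chr11:52256752-52257002 on the minus strand for Tcf7 (bases 622 to 771 of its longest annotated coding sequence) and at chr3:131194734-131200390 on the plus strand for Lef1 (bases 949 to 1098).
Tcf7: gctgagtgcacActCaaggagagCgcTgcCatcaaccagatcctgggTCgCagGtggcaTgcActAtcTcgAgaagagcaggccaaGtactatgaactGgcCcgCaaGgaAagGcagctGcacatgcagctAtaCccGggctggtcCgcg
Lef1: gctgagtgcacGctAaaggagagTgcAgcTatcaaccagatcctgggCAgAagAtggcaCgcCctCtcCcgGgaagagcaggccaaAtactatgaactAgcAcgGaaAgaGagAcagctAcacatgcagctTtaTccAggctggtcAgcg
Of the 150 bases, 124 (82.7%) were identical and 26 differed. The longest run shared by any coding transcript of Tcf7 and any of Lef1 was 17 bases, whereas the authors allowed 2 mismatches per alignment. Reads of one gene that fall in this window thus differ from the other gene at many bases.

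Tcf7 (chromosome 11, 52252371 to 52283014, minus strand, GRCm38) was the most abundant of the 4 genes in splenic NK cells. It was counted at 322, 452 and 302 CPM in WT replicates 1, 2 and 3. In KO replicates 1, 2 and 3 it was counted at 390, 513 and 504 CPM. The groups overlapped, since WT replicate 2 lay above KO replicate 1. The means were 358 ± 81.6 CPM (SD, n = 3) in WT and 469 ± 68.4 CPM (SD, n = 3) in KO NK cells. The log2 fold change was 0.39 (standard error 0.18, 95% confidence interval −0.02 to 0.80, adjusted p = 0.158, edgeR), so Tcf7 was not called, and the interval runs from a 0.98-fold to a 1.74-fold level in KO.

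Lef1 (chromosome 3, 131110471 to 131224356, plus strand) was likewise highest in WT replicate 2 among the WT libraries. Its levels were 44, 60.6 and 39.6 CPM in WT replicates 1, 2 and 3 and 55.4, 58.8 and 67.3 CPM in KO replicates 1, 2 and 3. Only KO replicate 3 exceeded every WT library. The log2 fold change was 0.33 (standard error 0.16, interval −0.05 to 0.71, adjusted p = 0.184, edgeR), which did not pass. An antisense gene, Gm43352, covers 13.75% of the Lef1 exon bases on the other strand, and since the strand setting of the counting is not stated, reads of the 2 could not be told apart.

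Bach2 (chromosome 4, 32238804 to 32586108, plus strand) did not share this order. It lay at 23.0, 39.4 and 37.2 CPM in WT replicates 1, 2 and 3 and at 26.5, 30.1 and 36.7 CPM in KO replicates 1, 2 and 3. All KO values fell inside the WT range. The log2 fold change was −0.09 (standard error 0.21, interval −0.59 to 0.40, adjusted p = 0.777, edgeR). Its antisense partner Bach2os shares 5.4% of the exon bases.

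Il7r (chromosome 15, 9505788 to 9530176, minus strand) was counted at 101, 82.4 and 65.4 CPM in WT replicates 1, 2 and 3. In KO replicates 1, 2 and 3 it was counted at 86.1, 94.5 and 108 CPM. The WT libraries spanned most of the KO range, and only KO replicate 3 lay above all of them. The log2 fold change was 0.22 (standard error 0.16, interval −0.16 to 0.59, adjusted p = 0.369, edgeR). No exon of another annotated gene overlapped those of Il7r.

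**Figure D1:**
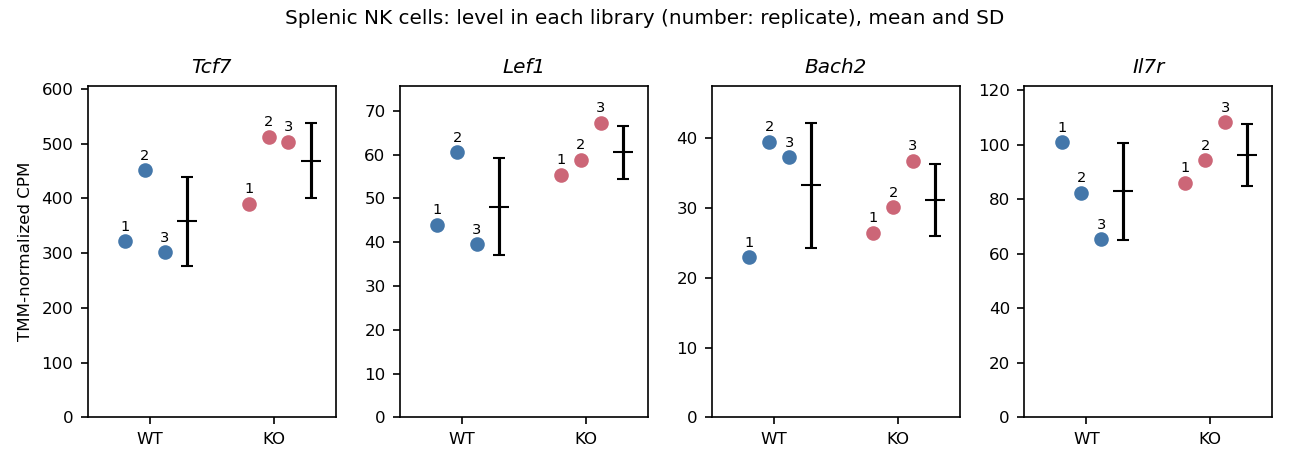
TMM-normalized CPM of Tcf7, Lef1, Bach2 and Il7r in each splenic NK library (points, labelled with the replicate number), with the mean and SD of each group of 3 (dash and bar). WT and KO points overlap in every panel, and WT replicate 2 is the highest WT library for Tcf7, Lef1 and Bach2.

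None of the 4 genes was called between KO and WT NK cells, against 9.51% of the 13189 genes tested (1254 genes, 372 higher and 882 lower). None had groups that did not overlap either, whereas 38.5% of the tested genes had. The median log2 fold change of the 4 was 0.28, beside 0.01 over all genes tested, and 3 of the 4 lay above 0, as did 51.5% of all genes. At the study's adjusted p under 0.01, edgeR called no gene at all (0 of 13189, with 2080 higher and 2639 lower at an unadjusted p under 0.05), and DESeq2 called 10.8% of its genes, again none of the 4. The number of mouse calls moved widely with single libraries: edgeR called 99 genes without WT replicate 1, 2740 without WT replicate 2, 14 without WT replicate 3, 1674 without KO replicate 1 and 0 without KO replicate 2 or KO replicate 3, and the list counts given further on are subject to this.

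Scaled for length, to CPM per kilobase of exon, the 4 genes kept 1 order in all 6 mouse libraries. Tcf7 stood highest, at a mean of 137 in WT and 179 in KO NK cells. Il7r followed at 17.8 and 20.7, Lef1 at 5.47 and 6.88, and Bach2 at 3.34 and 3.13, all in CPM per kilobase. No neighbours in this order overlapped in any library of either group. The order was the same in WT and KO NK cells.

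Ratios of raw counts within a library do not depend on how libraries are scaled, and they were chosen after the levels were seen. The Tcf7 to Lef1 ratio was 7.31, 7.46 and 7.62 in WT replicates 1, 2 and 3 and 7.04, 8.73 and 7.49 in KO replicates 1, 2 and 3. Its log2 difference between KO and WT was 0.05 (two-sided exact permutation test, p = 0.8, where 3 against 3 cannot go below 0.1). On the log2 scale its SD was 0.03 in WT and 0.16 in KO libraries (n = 3 each). The Tcf7 to Bach2 ratio varied more, from 8.1 to 14 in WT and from 13.7 to 17 in KO libraries, with a log2 difference of 0.47 (exact permutation p = 0.2).

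The genes whose profile over the 6 libraries was most like that of each member were found by the root mean square difference of centred log2 CPM, among 10253 other genes. For Tcf7 they were Vwa8, Abhd2 and Nup210, at 0.06 each, and Lef1 ranked 96 at 0.10. For Lef1 they were Zfp799, Plpp6 and Borcs7, at 0.05 to 0.06, and Tcf7 ranked 62. Fancm, Rab27b and Atad2b came closest to Bach2, and Tkfc, Ccdc14 and Zmpste24 to Il7r. In likeness to Tcf7, Il7r ranked 3698 and Bach2 6112, and in likeness to Lef1 they ranked 3328 and 6502. These values describe 6 libraries that also share depth and cell content.

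Libraries differed within both groups in a way that touches these values. The summed CPM of 12 pan-NK genes was 6760, 11100 and 7030 in WT replicates 1, 2 and 3 and 12500, 14100 and 13700 in KO replicates 1, 2 and 3. That of 9 macrophage markers was 6600, 2560 and 4920 in WT and 2500, 1380 and 1910 in KO replicates 1, 2 and 3. WT replicate 2, in which Tcf7 and Lef1 were highest among WT, was also highest of the 3 in pan-NK genes and lowest in macrophage markers. In WT libraries, B cell markers (11 genes) summed to 574 to 1650 CPM and T cell markers (12 genes) to 254 to 390 CPM. Neutrophil markers (8 genes) summed to 67.3 to 740 CPM there. In KO replicates 1, 2 and 3, B cell markers summed to 539, 112 and 99 CPM. T cell markers stood at 326, 175 and 191 CPM and neutrophil markers at 79.4, 1.78 and 2.47 CPM in the same order. No gene of these lists was at 0 in every library. KO replicate 1 was the highest KO library in these sums and in macrophage markers. It was the lowest KO library in pan-NK genes and in each of the 4 genes. In the T cell list, Cd3g and Cd28 were called higher in KO, at 0.59 and 0.66, whereas 8 of the 12 genes lay below 0. The part of other cells in the levels of the 4 genes, all of which T or B cells can also express, was not tested. In bulk RNA, moreover, fewer cells of a type and less RNA per cell cannot be told apart.

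**Figure D2:**
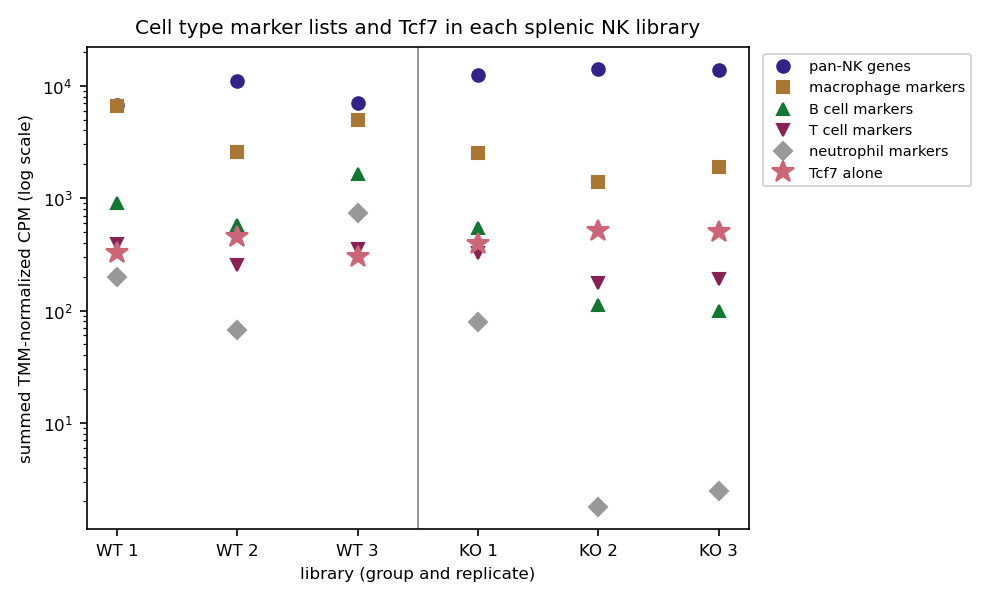
Summed TMM-normalized CPM of each marker list, and the CPM of Tcf7 alone (stars), in each splenic NK library, on a log axis. The pan-NK sum runs from 6760 in WT replicate 1 to 14100 in KO replicate 2, and WT replicate 2 stands nearer to the KO libraries than the other WT libraries do in pan-NK and macrophage genes.

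Leaving out WT replicate 2 changed the calls of Tcf7 and Lef1. Without it Tcf7 had a log2 fold change of 0.59 (adjusted p = 0.0203, edgeR) and Lef1 of 0.54 (adjusted p = 0.0166, edgeR), so that both were called, as were 20.4% of all genes tested in that fit (6.75% of them higher). Bach2 then stood at 0.05 and Il7r at 0.21, neither called. With any other library left out instead, none of the 4 was called, and the log2 fold change of Tcf7 lay between 0.27 and 0.50.

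Scaling the libraries to the pan-NK genes instead of TMM turned the sign of 3 of the 4 genes. The pan-NK list includes effector genes such as Prf1, Gzma and Ccl5, and the receptor gene Il2rb. Of its 12 genes, 6 were called higher in KO NK cells under TMM, beside 2.82% of all tested genes. The study also reports higher Prf1 and Il2rb mRNA in KO NK cells. A change shared by these genes is thus removed by this scaling, whatever its source. This scaling moved the median of all genes to −0.77. Tcf7 came to −0.35 (adjusted p = 0.153, edgeR), Lef1 to −0.40 (adjusted p = 0.143, edgeR) and Il7r to −0.58 (adjusted p = 0.0688, edgeR), and none passed. Bach2 came to −0.84 (adjusted p = 0.0182, edgeR) and was called lower, as were 61.7% of all genes under this scaling. Relative to the median gene, the values were 0.42 for Tcf7, 0.37 for Lef1, 0.19 for Il7r and −0.07 for Bach2, close to those under TMM. This closeness is built in, since a change of scaling shifts the log2 fold change of every gene nearly alike. Per pan-NK transcript, Tcf7 stood at 0.848, 0.715 and 0.751 in WT replicates 1, 2 and 3 and at 0.556, 0.636 and 0.62 in KO replicates 1, 2 and 3, as the ratio of its raw count to the geometric mean of the pan-NK list. On this ratio every KO library lay below every WT library (exact permutation p = 0.1, the smallest that 3 against 3 allow), as was so for 65.1% of all tested genes, whereas on CPM the mean was higher in KO. Lef1 and Bach2 were likewise lower in every KO library on this ratio, and Il7r overlapped, at 0.133 in KO replicate 3 and 0.13 in WT replicate 2.

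**Figure D3:**
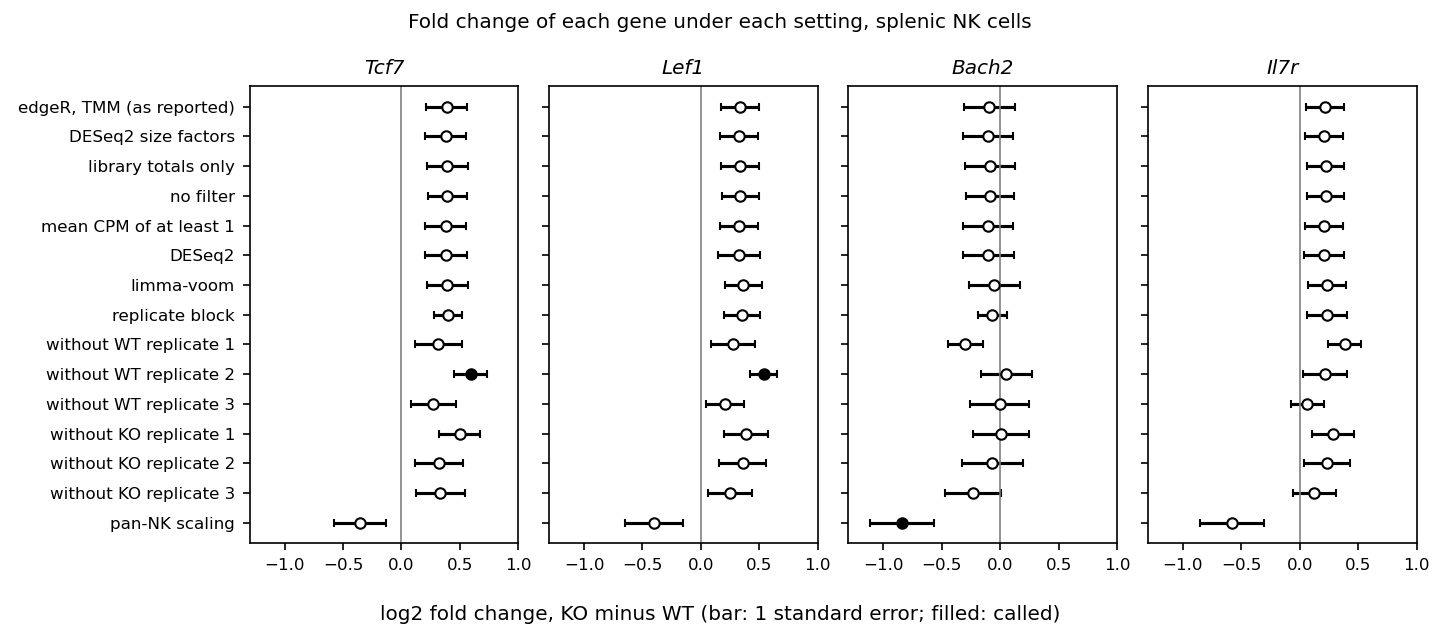
Log2 fold change of Tcf7, Lef1, Bach2 and Il7r (KO minus WT, x axis) under each normalization, filter, test and left-out library (y axis), with 1 standard error as a bar and filled points where the gene was called. Tcf7 and Lef1 are filled without WT replicate 2, at 0.59 and 0.54, and Bach2 is filled under pan-NK scaling, at −0.84.

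The partners of TCF-1 and LEF-1 were described from a list of 11 genes, of which 10 were tested. Of these, 2 fell in KO NK cells, 0 rose and 8 did not pass, with a median log2 fold change of 0.04, where 6.69% of all tested genes fell and 2.82% rose. Tcf7l2, another TCF factor, fell from 18.5 ± 7.44 to 7.18 ± 0.66 CPM (SD, n = 3), a log2 fold change of −1.37 (adjusted p = 0.0356, edgeR). Bcl9, which couples β-catenin to its co-activators, fell from 36.7 ± 6.52 to 19.6 ± 2.05 CPM (−0.91, adjusted p = 0.0279, edgeR). Tcf7 stood at 12.5, 41.3 and 16.1 times the raw count of Tcf7l2 in WT replicates 1, 2 and 3 and at 49.5, 78.1 and 71.2 times in KO replicates 1, 2 and 3. The macrophage marker sums given above also moved between the groups, and their part in the fall of Tcf7l2 and Bcl9 was not tested. β-catenin itself (Ctnnb1) had a log2 fold change of 0.11 and Tle3, the most abundant co-repressor of the list, 0.34, and neither passed.

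The Wnt list joins components of the complex that degrades β-catenin, such as Apc and Gsk3b, with feedback targets of β-catenin, such as Axin2. None of the 8 tested genes of that list of 12 was called, and their median log2 fold change was 0.18. Axin2, a widely used target, lay at 10.8 ± 1.73 CPM in WT and 13.2 ± 0.41 CPM in KO NK cells (SD, n = 3, log2 fold change 0.29, adjusted p = 0.175, edgeR). Znrf3 and Rnf43, membrane ligases that limit Wnt receptors, stood at 0.63 and 0.56 without passing. DESeq2 called these 2 genes higher, at 0.62 (adjusted p = 0.0289) and 0.56 (adjusted p = 0.0343).

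BACH partners and targets were 11 genes, all tested. In KO NK cells 3 fell, 0 rose and 8 did not pass, and the median log2 fold change was −0.25. Over all tested genes, 6.69% fell and 2.82% rose. Hmox1, the heme oxygenase, fell from 1270 ± 922 to 219 ± 70.2 CPM (SD, n = 3, log2 fold change −2.54, adjusted p = 0.0402, edgeR). Gclm, a subunit of the enzyme that starts glutathione synthesis, fell by 0.75 (adjusted p = 0.0215, edgeR), and the quinone reductase Nqo1 fell by 1.40 (adjusted p = 0.0491, edgeR), a call that was lost with library totals only (adjusted p = 0.0504). With limma-voom, too, only 2 of the 11 genes were called lower. Hmox1 is abundant in red pulp macrophages, whose markers Vcam1 and Spic also fell, by 2.30 and 2.28, and the part of such cells in its fall was not tested. Prdm1, which BACH2 is known to repress, had a log2 fold change of 0.18 and was not called.

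Genes of the IL-7 receptor pathway that were called in KO NK cells were all higher. Of 16 tested genes, 3 rose, 0 fell and 13 did not pass, with a median log2 fold change of 0.31. Over all tested genes, 2.82% rose and 6.69% fell. Cish, a feedback inhibitor of STAT5 signalling, rose from 13.8 ± 1.34 to 28.6 ± 3.19 CPM (SD, n = 3, log2 fold change 1.06, adjusted p = 0.0181, edgeR). Socs1, another feedback inhibitor of JAK kinases, rose by 0.95 (adjusted p = 0.0269, edgeR) and Jak3, the kinase bound to the common γ chain, by 0.72 (adjusted p = 0.0279, edgeR). Il2rg, the common γ chain, stood at 0.47 (adjusted p = 0.0472, edgeR), under the fold threshold, and Stat5a and Stat5b at 0.01 and −0.08. Under pan-NK scaling none of the 3 was called, at 0.28 for Cish, 0.20 for Socs1 and −0.08 for Jak3. Each of these genes also serves receptors other than that of IL-7, including those of IL-2 and IL-15.

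Genes called among other stem-like and memory lymphocyte genes were both higher and lower in KO NK cells under TMM. Of 16 tested genes, 2 rose, 1 fell and 13 did not pass, and the median log2 fold change was −0.096. Over all tested genes, 2.82% rose and 6.69% fell under TMM. Myb, a factor of progenitors, fell from 101 ± 8.65 to 53.2 ± 3.46 CPM (SD, n = 3, log2 fold change −0.93, adjusted p = 0.0162, edgeR). The costimulatory receptor Cd28 rose by 0.66 (adjusted p = 0.0421, edgeR) and the chemokine Xcl1 by 0.81 (adjusted p = 0.0473, edgeR). Other fits called more of the 16 genes. DESeq2 called 4 higher and 4 lower, as did edgeR with the replicate number as a block, and limma-voom called 2 higher and 3 lower. Over all genes, DESeq2 called 570 higher and 1669 lower. Under pan-NK scaling Cd28 stood at −0.10 and Xcl1 at 0.06, neither called, and 10 of the 16 genes were called lower and 0 higher, with a median of −0.87, where the median of all genes was −0.77. The same scaling called lower 7 of 10 TCF/LEF cofactors, 3 of 8 Wnt genes, 9 of 11 BACH genes and 6 of 16 genes of the IL-7 receptor pathway. None of these lists had a gene called higher. Over all 13189 tested genes, this scaling called 61.7% lower and 39 genes higher, so a lower call was the common outcome. Ccr7, the lymph node homing receptor, lay at −1.0 under TMM and did not pass. Cd28 and Ccr7 also stand in the list of T cell markers.

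Maturation lists give the setting in which the 4 genes were measured. Over all tested genes, 2.82% rose and 6.69% fell under TMM. Of 13 early NK maturation genes, 1 rose (Cd7, log2 fold change 0.67, adjusted p = 0.0429, edgeR), 0 fell and 12 did not pass. Of 13 late maturation genes, 6 rose and 0 fell, among them Klrg1 at 0.95 (adjusted p = 0.0162, edgeR), Itgam at 0.62 (adjusted p = 0.0239, edgeR) and S1pr5 at 0.97 (adjusted p = 0.0319, edgeR). The medians were 0.52 for the early and 0.63 for the late list, and the pan-NK list stood at 0.75, with 6 of 12 genes higher. The number of early genes called depended on the method. DESeq2 called 6 early genes higher and 1 lower, and 7 late genes higher and 0 lower. Over all genes it called 570 higher and 1669 lower. With the replicate number as a block, 4 early genes rose and 1 fell, and 7 late genes rose and 0 fell. Under pan-NK scaling no gene of either maturation list was called higher and 3 of each were called lower. Among all 13189 tested genes, 61.7% were called lower and 39 genes higher under this scaling. Prf1 stands in both the late list and the pan-NK list. The medians of the early and late lists were −0.29 and −0.15. Relative to the median gene these were 0.48 and 0.61, beside 0.50 and 0.61 under TMM, a closeness that is again built into a change of scaling. The log2 fold changes of Tcf7 and Lef1, at 0.39 and 0.33, lay under these 3 medians, and the difference was not tested. Of 8 markers of helper innate lymphoid cells, relatives of NK cells that use IL7R, edgeR called none in either direction. DESeq2 called 2 higher and 1 lower. Their sum lay at 91.9 to 130 CPM in WT and at 132 to 156 CPM in KO libraries. These sums did not overlap, as was so for 38.5% of single tested genes. Gata3, the most abundant of the 8, lay at 61.8 ± 17.8 CPM in WT and 94.2 ± 15.2 CPM in KO libraries (SD, n = 3).

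In NK92MI cells the 4 human genes were near the limit of detection. A count of 3 in a library corresponds to 0.175 to 0.181 CPM, and edgeR's filter on low counts kept TCF7 alone of the 4. TCF7 (chromosome 5, 134114681 to 134151865, plus strand, GRCh38) had raw counts of 15, 17 and 6 in DMSO libraries A, B and C and of 17, 31 and 18 in BIX replicates 1, 2 and 3. As CPM these were 0.873, 0.994 and 0.355 under DMSO and 1.04, 1.82 and 1.06 under BIX. Every BIX library lay above every DMSO library in CPM, as was so in this direction for 24.1% of the tested genes. BIX replicates 1 and 3 exceeded DMSO library B by small margins only, and BIX replicate 1 held the same raw count as DMSO library B, 17. The log2 fold change was 0.81 (standard error 0.41, 95% confidence interval −0.07 to 1.70, adjusted p = 0.14, edgeR), so TCF7 was not called, against 14.9% of the 12727 tested genes (964 higher and 934 lower). Of the 12 human pan-NK genes, 4 were themselves called higher under BIX, beside 7.57% of all tested genes. Scaling to the pan-NK genes moved the median of all human genes to −0.22. It changed the calls to 512 higher and 2219 lower, and TCF7 stood at 0.61. Without DMSO library C it was 0.48, and without DMSO library B 1.08, both still not called. The gene SKP1 on the other strand, with 2045 to 2575 counts in each library, shares 2.08% of the TCF7 exon bases.

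IL7R (chromosome 5, 35852695 to 35879603, plus strand) was removed by the filter. Its raw counts were 1, 8 and 1 in DMSO libraries A, B and C and 20, 15 and 8 in BIX replicates 1, 2 and 3. DMSO library B and BIX replicate 3 held the same count, and as CPM they were 0.468 and 0.472. Every BIX library was thus above every DMSO library, as was so for 19.6% of all genes with a count. The pooled ratio was 4.37 (43 against 10 counts, exact 95% interval 2.16 to 9.75, which covers counting error only). Tested without the filter, IL7R came to a log2 fold change of 2.10 (standard error 0.68, interval 0.66 to 3.53, adjusted p = 0.0302, edgeR), and DESeq2 gave 2.14 (adjusted p = 0.0291), so that it was called higher by both, as were 5.77% and 6.57% of the genes in those fits. The call was lost without DMSO library A (1.67, adjusted p = 0.131), without DMSO library C (1.68, adjusted p = 0.143), without BIX replicate 1 (1.76, adjusted p = 0.17) and without BIX replicate 2 (2.08, adjusted p = 0.0527, all edgeR), and it did not pass the study's threshold of 0.01.

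BACH2 and LEF1 gave no difference that this depth could show. BACH2 (chromosome 6, 89926528 to 90296843, minus strand) had 8, 2 and 4 counts in DMSO libraries A, B and C and 6, 6 and 5 counts in BIX replicates 1, 2 and 3. The pooled ratio was 1.23, with an exact 95% interval of 0.572 to 2.7 for counting error. LEF1 (chromosome 4, 108047545 to 108168956, minus strand) was counted once under DMSO, in library C, and at 2 in BIX replicate 2, with 0 in the other 4 libraries. All of its values lay under the floor of 3 counts, so no fold is given. For comparison, Tcf7 had between 11229 and 19045 raw counts in each mouse library.

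**Figure D4:**
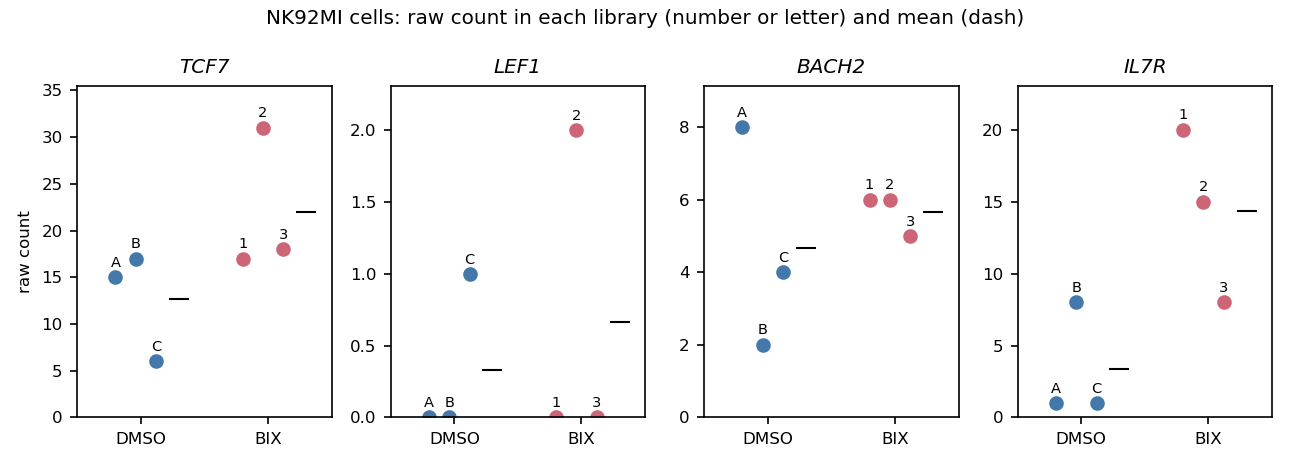
Raw counts of TCF7, LEF1, BACH2 and IL7R in each NK92MI library (points, labelled with the DMSO letter or the BIX replicate number), with the group mean as a dash. BIX replicate 2 is the highest library for TCF7 at 31 counts, and IL7R runs from 1 to 8 under DMSO and from 8 to 20 under BIX.

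Most partners of the 4 genes that were tested in NK92MI cells had far higher counts than the genes themselves, although TCF7L1, TCF7L2 and HMOX1 did not pass the filter and only 5 of the 12 Wnt genes were tested. None of the 8 tested TCF/LEF cofactors and none of the 5 tested Wnt genes was called, with median log2 fold changes of 0.14 and 0.09, beside −0.01 over all genes, of which 7.57% rose and 7.34% fell. CTNNB1 stood at 210 ± 4.74 CPM under DMSO and 229 ± 10 CPM under BIX (SD, n = 3). Of 9 BACH partners and targets, 2 rose and 0 fell, the small Maf protein MAFF by 0.84 (adjusted p = 0.00277, edgeR) and NQO1 by 0.62 (adjusted p = 0.0106, edgeR). Under pan-NK scaling MAFF stood at 0.63 and was still called, and NQO1 at 0.41 was not. PRDM1 stood at 0.48 (adjusted p = 2.12e-04, edgeR), below the fold threshold.

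The signalling chain below IL7R was present although the receptor chain was scarcely counted. Of 14 tested genes, 3 rose, 1 fell and 10 did not pass, and the median log2 fold change was 0.11. Over all tested human genes, 7.57% rose and 7.34% fell. MCL1, a survival protein, rose from 532 ± 18.2 to 997 ± 11.3 CPM (SD, n = 3, log2 fold change 0.91, adjusted p = 1.11e-07, edgeR). BCL2, another survival protein, rose by 0.57 (adjusted p = 2.4e-05, edgeR) and IL2RG, the common γ chain, by 0.65 (adjusted p = 0.00217, edgeR). STAT5B fell by 0.57 (adjusted p = 9.62e-06, edgeR). Under pan-NK scaling MCL1 (0.70) and STAT5B (−0.77) were still called, BCL2 (0.37) and IL2RG (0.44) were under the fold threshold, and the median of the list was −0.10. CISH stood at −0.25 and SOCS1 at 0.26 in these cells, neither called, where Cish and Socs1 had risen in KO NK cells. The difference between the 2 systems was not tested.

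Other genes of stem-like and memory lymphocytes were higher and lower under BIX. Of 15 tested genes, 5 rose, 2 fell and 8 did not pass, and the median log2 fold change was 0.15. Over all tested human genes, 7.57% rose and 7.34% fell. CCR7 rose from 41 ± 4.25 to 198 ± 11.9 CPM (SD, n = 3, log2 fold change 2.27, adjusted p = 1.95e-09, edgeR). The chromatin organizer SATB1 rose by 1.0 (adjusted p = 7.89e-07, edgeR), MYB by 1.04 (adjusted p = 5.88e-06, edgeR), CD28 by 1.12 (adjusted p = 5.92e-06, edgeR) and the repressor BCL6 by 0.86 (adjusted p = 1.04e-05, edgeR). KLF2, a factor of quiescence, fell by 1.14, and its target S1PR1 fell by 0.53 (adjusted p = 0.0408, edgeR), a call that DESeq2 did not make (adjusted p = 0.08). Under pan-NK scaling each of these 7 genes was called in the same direction, and the median of the list was −0.059. Under limma-voom, only 1 gene of the list was called lower. The same held without DMSO library A, DMSO library B, BIX replicate 1 or BIX replicate 2. CCR7 and CD28 also stand in the list of T cell markers. MYB rose under BIX whereas Myb fell in KO NK cells, each by its own test.

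**Figure D5:**
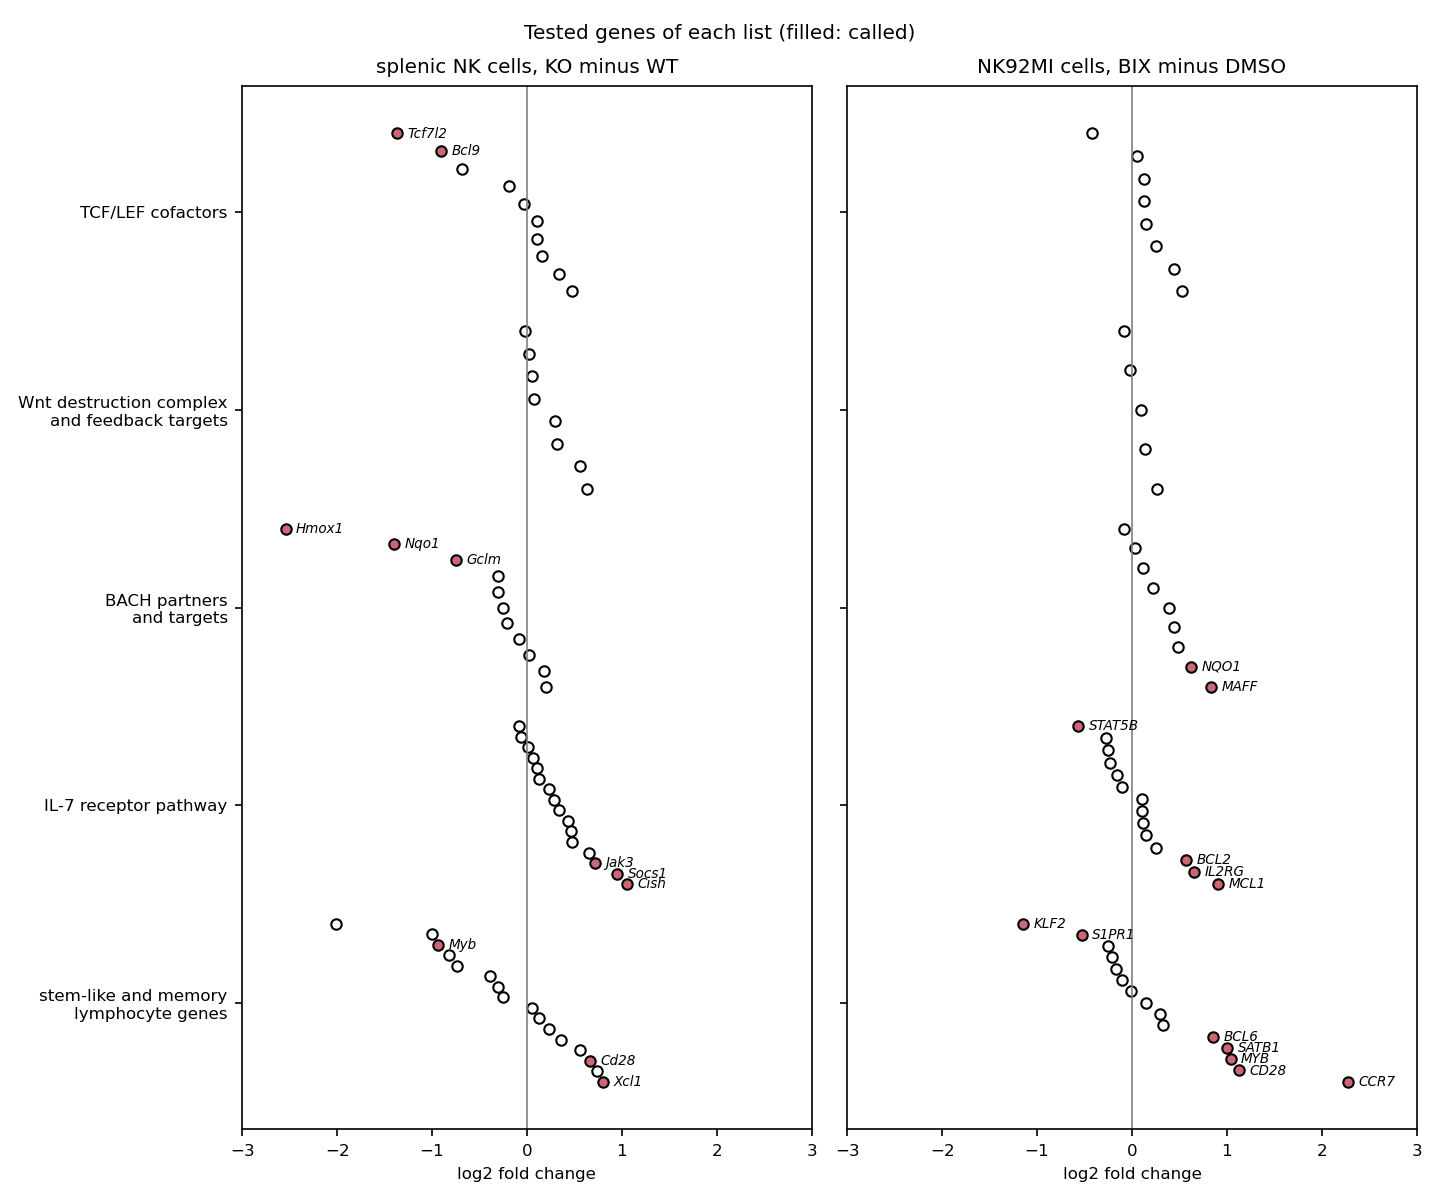
Log2 fold change (x axis) of each tested gene of the 5 pathway lists (rows), in splenic NK cells on the left and NK92MI cells on the right, with called genes filled and named. The IL-7 receptor list has Cish, Socs1 and Jak3 on the right of 0 in the mouse panel, and CCR7 lies farthest to the right in the human panel, at 2.27.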

How the data were processed

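RNA-seq libraries of polyadenylated RNA from splenic NK cells (3 WT, 3 KO) and NK92MI cells (3 DMSO, 3 BIX) were analysed. The authors trimmed reads with fastp 0.23.4, aligned mouse reads to GRCm38 and human reads to GRCh38 with STAR 2.7.11b, and used HTSeq 2.0.3 for counting; the deposited values are raw counts per gene symbol, and annotation release and strand setting are not given in the sources used here. The 8 members and all gene lists were chosen with earlier results of these data known.

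Each species was fitted separately with edgeR 4.0.16 (quasi-likelihood test, TMM, filterByExpr, R 4.3.3), with Benjamini-Hochberg adjustment over all genes tested. The study used DESeq2 with an adjusted p under 0.01. Alternatives were DESeq2 1.42.0, limma-voom (limma 3.58.1), other scalings, filters and thresholds, the replicate number as a block and each library left out; for members that the filter removes, these were run without the filter, a choice made after seeing the data. Log2 CPM profiles used a prior count of 2. Named genes are the members, the targeted gene, called list genes (up to 5 examples by smallest adjusted p) and the 3 genes most like each member. Some list genes that did not pass are named as well, chosen after their values were seen. Positions and exon lengths come from GENCODE M21 and v44, which may not be the authors' releases. Itgam occurs more than once in the mouse table, and its first row was used. A gene of the stem-like and memory list is not reported here and was left out of its counts. The procedure was tested on simulated data. Intervals on counts and the floor of 3 counts cover counting error only.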

Additional observations from a re-analysis of the deposited data

How the results depend on the processing

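The log2 fold change of Tcf7, Lef1 and Il7r kept its sign in every alternative but pan-NK scaling, where it was −0.35, −0.40 and −0.58. Bach2 came to −0.84 and was called there, against a shift of the median gene to −0.77. Leaving out each library in turn gave 0.27 to 0.59 for Tcf7, 0.21 to 0.54 for Lef1, −0.30 to 0.050 for Bach2, with its sign turned without WT replicate 2 (0.050) and without KO replicate 1 (0.01), and 0.07 to 0.38 for Il7r. In NK92MI cells it gave 0.48 to 1.08 for TCF7 and, without the filter, 1.67 to 3.71 for IL7R (1.76 without BIX replicate 1 and 2.08 without BIX replicate 2), −0.057 (without DMSO library B) to 0.91 for BACH2 and −1.86 to 2.67 for LEF1, whose sign rests on single counts. The IL7R value of 2.10 was not called at an adjusted p under 0.01. The causes were not tested.

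Genes called between KO and WT numbered 1254, 8171 under pan-NK scaling (39 higher and 8132 lower), 2239 with DESeq2 and 0 at an adjusted p under 0.01, and 0 to 2740 with a library left out. The replicate number as a block gave 2145 genes and called none of the 4 members (Tcf7 0.40, adjusted p = 0.0529, edgeR). The deviations of same-numbered libraries correlated at 0.38, 0.52 and −0.21, so the number did not pair all of them. In NK92MI cells, 1898 genes were called, 4692 with no fold threshold, 2731 under pan-NK scaling and 1675 to 1993 with a library left out; no paired fit was possible there because the DMSO columns carry no link to numbered samples. For LEF1, BACH2 and IL7R, depth limits what can be seen.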
